A study of Mus musculus with 6 samples.

Results

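The 27 genes described here encode enzymes of cholesterol synthesis, the proteins that regulate those enzymes, and proteins that move or store cholesterol. They were chosen by symbol from a count table of 49993 genes, and all 27 were found in it and passed edgeR's filter on low counts, which left 14301 genes to test. Of these, 18 are enzymes, 5 belong to the control of SREBP, and 4 act in cholesterol transport and storage. RNA-seq was done on mouse blastocysts that were cultured in vitro from the zygote (3 libraries) or that developed in vivo (3 libraries). The samples are called blastocysts throughout, although the labels name a single inner cell mass per library. All mothers, of cultured and in vivo embryos alike, were superovulated with 10 IU of PMSG (a gonadotrophin from pregnant mares that stimulates follicles) followed after 48 h by 10 IU of hCG (chorionic gonadotrophin, which triggers ovulation), and were mated naturally, so that fertilisation took place in the oviduct in both groups. Zygotes of the in vitro group were collected 19 to 21 h after hCG and cultured in KSOM medium at 37 °C under 5% CO2 up to the blastocyst stage. Embryos of the in vivo group were collected as blastocysts by flushing on day 3.5. No source used here gives the strain, the age of the mothers or how old the cultured embryos were when frozen.

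Cholesterol is built from acetyl-CoA through mevalonate, farnesyl diphosphate, squalene and lanosterol. SREBP2, encoded by Srebf2, is a membrane-bound transcription factor that induces these enzymes when sterols in the endoplasmic reticulum are scarce, after SCAP has escorted it to the Golgi, and INSIG proteins hold it back when sterols are plentiful. Cholesterol that enters a cell by endocytosis leaves the lysosome through NPC2 and NPC1, and surplus cholesterol is esterified by SOAT1. The comparison addresses whether transcript levels of this pathway differed between cultured and in vivo blastocysts.

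The libraries held 6918288 to 12735551 counts in vitro and 9174789 to 17643429 counts in vivo, of which ribosomal RNA genes took 37.8% to 42.1% in vitro and 18.4% to 47.8% in vivo. Values below are CPM, counts relative to library totals that were scaled with the TMM method, and 3 counts, the limit that a count of 0 allows, correspond to 0.215 to 0.525 CPM per library. The libraries of a group were unequal. In vivo replicates 1 and 2 correlated at 0.942 across genes (Spearman, log2 CPM), and in vivo replicate 3 had 0.786 and 0.793 with them. Among the in vitro libraries, replicate 2 had 0.848 and 0.824 with replicates 1 and 3, which had 0.789 with each other. In vitro replicate 2 had 0.873 and 0.857 with in vivo replicates 1 and 2. In vitro replicate 2 was also the only library without Y-linked RNA, with 1 count over the Y-linked genes Ddx3y, Eif2s3y, Kdm5d and Uty and 7494 Xist counts, against 1139 to 1693 Y-linked and 8 to 341 Xist counts in the other 5 libraries. In vivo replicate 3 had the 341 Xist counts, and the other 4 had 8 to 56. The labels name a single inner cell mass per library, but all 8 trophectoderm markers were detected, with summed levels of 904, 1589 and 1484 CPM in vitro and 1211, 689 and 597 CPM in vivo. Primitive endoderm markers (8 of 8 detected in vitro) summed to 889, 636 and 623 CPM in vitro and 323, 279 and 414 CPM in vivo, without overlap. In vivo, Foxa2 had 0 counts in every library and Sox7 had 0, 0 and 1. All 8 had positive log2 fold changes (in vitro over in vivo). DESeq2, which called 2.81% of all genes, called 3 of them, Sox7, Foxa2 and Lama1, and edgeR called 0. Epiblast markers (8 of 8) summed to 409 to 954 CPM in vitro and 537 to 704 CPM in vivo. Of the markers of cumulus and granulosa cells, Fshr, Has2, Cyp19a1 and Ptgs2 had 0 counts in all 6 libraries, and summed levels of the list were 30.4 to 85.8 CPM in vitro and 26.9 to 37.7 CPM in vivo, most of it Nr5a2, which embryonic cells also express. Amhr2 of the same list went the other way without overlap, at 0, 1.54 and 0 CPM in vitro and 5.70, 11.7 and 10.3 CPM in vivo (log2 fold change -4.02 ± 1.53 SE, adjusted p = 0.429, edgeR). Luteal cell markers summed to at most 3.88 CPM in vitro and 3.35 CPM in vivo, blood markers to at most 3.64 and 5.37 CPM, and oocyte markers to at most 4.54 and 4.65 CPM. Uterine epithelium markers summed to 9.63 to 44.8 CPM in vitro and 9.50 to 35.1 CPM in vivo, most of it Wfdc2 in all 3 in vitro libraries and in in vivo replicate 1. Muc1 of the uterine list did not overlap, at 0.175, 2.63 and 0.130 CPM in vitro and 10.3, 4.63 and 15.4 CPM in vivo (log2 fold change -3.29 ± 1.27 SE, adjusted p = 0.440, edgeR). The part of lineage shares and of other cell types in the sterol gene values was not tested, and in such bulk samples fewer cells of a type and less RNA per cell cannot be told apart. Since nothing in the labels says that replicates had different mothers, the p-values reflect the spread among these 6 libraries alone, part of which may be technical.

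Most of the sterol genes with a promoter window shared a sequence feature. It was not used to choose them, but its binding factor is known to act with SREBP, so it is not independent of a choice by pathway. RefSeq promoter windows on GRCm38.p6 (250 bases before to 50 bases after the annotated start) were at hand for 22 of the 27 genes, in 30 windows because some genes have several starts, and Fdps, Fdft1, Sqle, Npc1 and Stard4 had none. They were searched on both strands for the sterol regulatory element bound by SREBPs (SRE, written TCACNCCAC), for the CCAAT box bound by NF-Y, which is known to act together with SREBP at sterol gene promoters, and for the E-box CACGTG. Of the 22 genes, 20 (90.9%) held a CCAAT box in at least 1 window, against 44.2% of the 8700 protein-coding genes tested here with a window and 41.1% of all 27025 genes in the promoter table. Counted by window the shares were 70.0% (21 of 30) against 38.8% of 11070 windows of tested protein-coding genes and 37.4% of all 32851 windows, and the mean G+C content was 61.0% in the members' windows and 60.7% in those of the tested protein-coding genes. Of the 30 windows, 11 (36.7%) held 2 or more CCAAT boxes, against 15.2% of windows of tested protein-coding genes. Acat2 and Scap were the 2 genes without a CCAAT box in the window. The strict SRE was found in 1 gene, Hmgcs1 (4.55% of the 22 genes, against 1.33% of tested protein-coding genes), and the E-box in 5 genes (22.7% against 12.2%), which were Hsd17b7, Insig1, Dhcr7, Sc5d and Scap. No 2 matches overlapped each other. These are matches of letters, not measured binding.

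The windows of 5 genes are printed, 5′ to 3′ on the strand of the gene, with every motif match in capitals (CCAAT or its reverse complement ATTGG, the SRE, and CACGTG). Hmgcs1 is shown as the one window with an SRE, and it also holds 4 CCAAT boxes. Insig1, Msmo1 and Nsdhl are shown as 3 of the genes whose expression did not overlap between the groups (Idi1, whose window holds 2 CCAAT boxes, is another and is not printed). Acat2, whose expression did not overlap either, is shown as a window with none of the 3 motifs.
Hmgcs1, chr13:119690101-119690400, plus strand: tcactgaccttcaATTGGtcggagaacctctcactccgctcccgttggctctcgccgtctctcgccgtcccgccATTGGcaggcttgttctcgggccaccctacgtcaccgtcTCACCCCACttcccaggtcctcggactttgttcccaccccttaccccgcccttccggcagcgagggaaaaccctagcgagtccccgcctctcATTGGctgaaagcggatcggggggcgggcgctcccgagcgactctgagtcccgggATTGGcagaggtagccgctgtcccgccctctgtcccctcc
Insig1, chr5:28071162-28071461, plus strand: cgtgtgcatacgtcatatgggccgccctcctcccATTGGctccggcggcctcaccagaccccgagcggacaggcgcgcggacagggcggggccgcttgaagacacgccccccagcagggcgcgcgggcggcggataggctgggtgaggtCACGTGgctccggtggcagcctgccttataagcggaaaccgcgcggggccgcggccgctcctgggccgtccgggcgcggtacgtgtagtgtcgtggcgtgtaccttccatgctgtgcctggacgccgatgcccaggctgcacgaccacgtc
Msmo1, chr8:64733529-64733828, minus strand: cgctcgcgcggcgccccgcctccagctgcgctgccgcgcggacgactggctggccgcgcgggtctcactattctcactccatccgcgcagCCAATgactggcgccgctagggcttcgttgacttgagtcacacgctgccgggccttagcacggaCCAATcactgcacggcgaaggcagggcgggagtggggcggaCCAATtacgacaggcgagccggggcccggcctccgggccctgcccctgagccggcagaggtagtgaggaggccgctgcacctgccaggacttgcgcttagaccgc
Nsdhl, chrX:72918271-72918570, plus strand: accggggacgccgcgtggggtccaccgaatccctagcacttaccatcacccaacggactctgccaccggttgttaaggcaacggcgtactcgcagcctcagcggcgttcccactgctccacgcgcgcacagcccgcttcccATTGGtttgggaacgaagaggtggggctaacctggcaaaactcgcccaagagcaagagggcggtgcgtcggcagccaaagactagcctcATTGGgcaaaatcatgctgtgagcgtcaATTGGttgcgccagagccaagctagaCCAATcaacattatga
Acat2, chr17:12960676-12960975, minus strand: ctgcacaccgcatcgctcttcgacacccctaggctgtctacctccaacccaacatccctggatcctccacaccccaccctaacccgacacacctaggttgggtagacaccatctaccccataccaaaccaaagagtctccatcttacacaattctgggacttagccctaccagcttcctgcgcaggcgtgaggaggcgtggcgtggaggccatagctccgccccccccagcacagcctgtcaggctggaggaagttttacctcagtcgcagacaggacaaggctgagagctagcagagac
Counted from the start site, the SRE of Hmgcs1 begins at position -137, between CCAAT boxes at -176 and -45. The 3 CCAAT boxes of Msmo1 begin at -160, -96 and -55, all on the strand of the gene, whereas those of Nsdhl begin at -109, -20, 9 and 35.

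**Figure D1:**
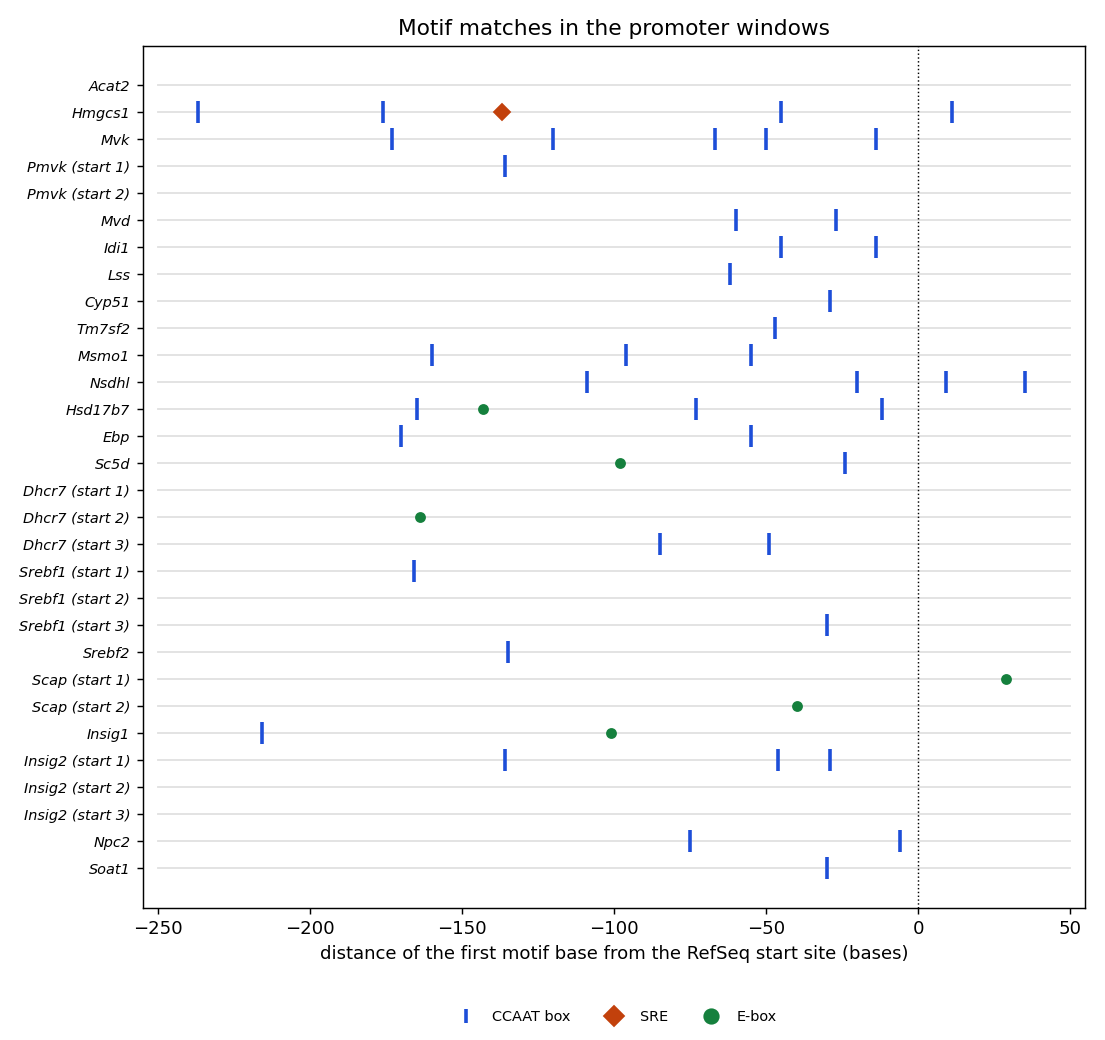
Positions of motif matches in the promoter windows of 22 sterol and cholesterol genes. Each row is a window, the x axis gives the distance in bases of the first motif base from the RefSeq start site (dotted line), bars are CCAAT boxes, the diamond is the SRE and circles are E-boxes; CCAAT boxes lie in 21 of the 30 windows, and Mvk has the most with 5.

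Between cultured and in vivo blastocysts, none of the 27 genes passed the test. Of these, 19 had lower and 8 higher fitted levels in vitro, with a median log2 fold change (in vitro over in vivo, here and below) of -0.33, against -0.01 over all 14301 genes tested, of which 7185 were negative and 7116 positive. By the quasi-likelihood test of edgeR, adjusted over all genes by Benjamini-Hochberg, the smallest adjusted p among the 27 was 0.433, for Stard4, and edgeR called 0% of all genes (0 of 14301, smallest adjusted p 0.306). Neither DESeq2 (2.81% of genes called) nor limma-voom (0.713%) called a sterol gene, with smallest adjusted p-values of 0.126 and 0.186, both for Stard4. At an unadjusted edgeR p below 0.05 stood 2 of the 27 genes (7.41%), against 10.2% of all genes tested: Stard4 in the higher direction (background 5.11%) and Nsdhl in the lower direction (background 5.08%). The 2 groups of libraries did not overlap for 6 genes (22.2%), against 19.3% of all genes tested. Lower in vitro were 5 of them (18.5%, background 10.0%), namely Acat2, Idi1, Msmo1, Nsdhl and Insig1, and Stard4 was the single one that was higher in vitro (3.70%, background 9.27%). Scaling by library totals alone shifted the median of all genes to -0.31 and that of the 27 genes to -0.52, with 22 negative and 5 positive values.

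**Figure D2:**
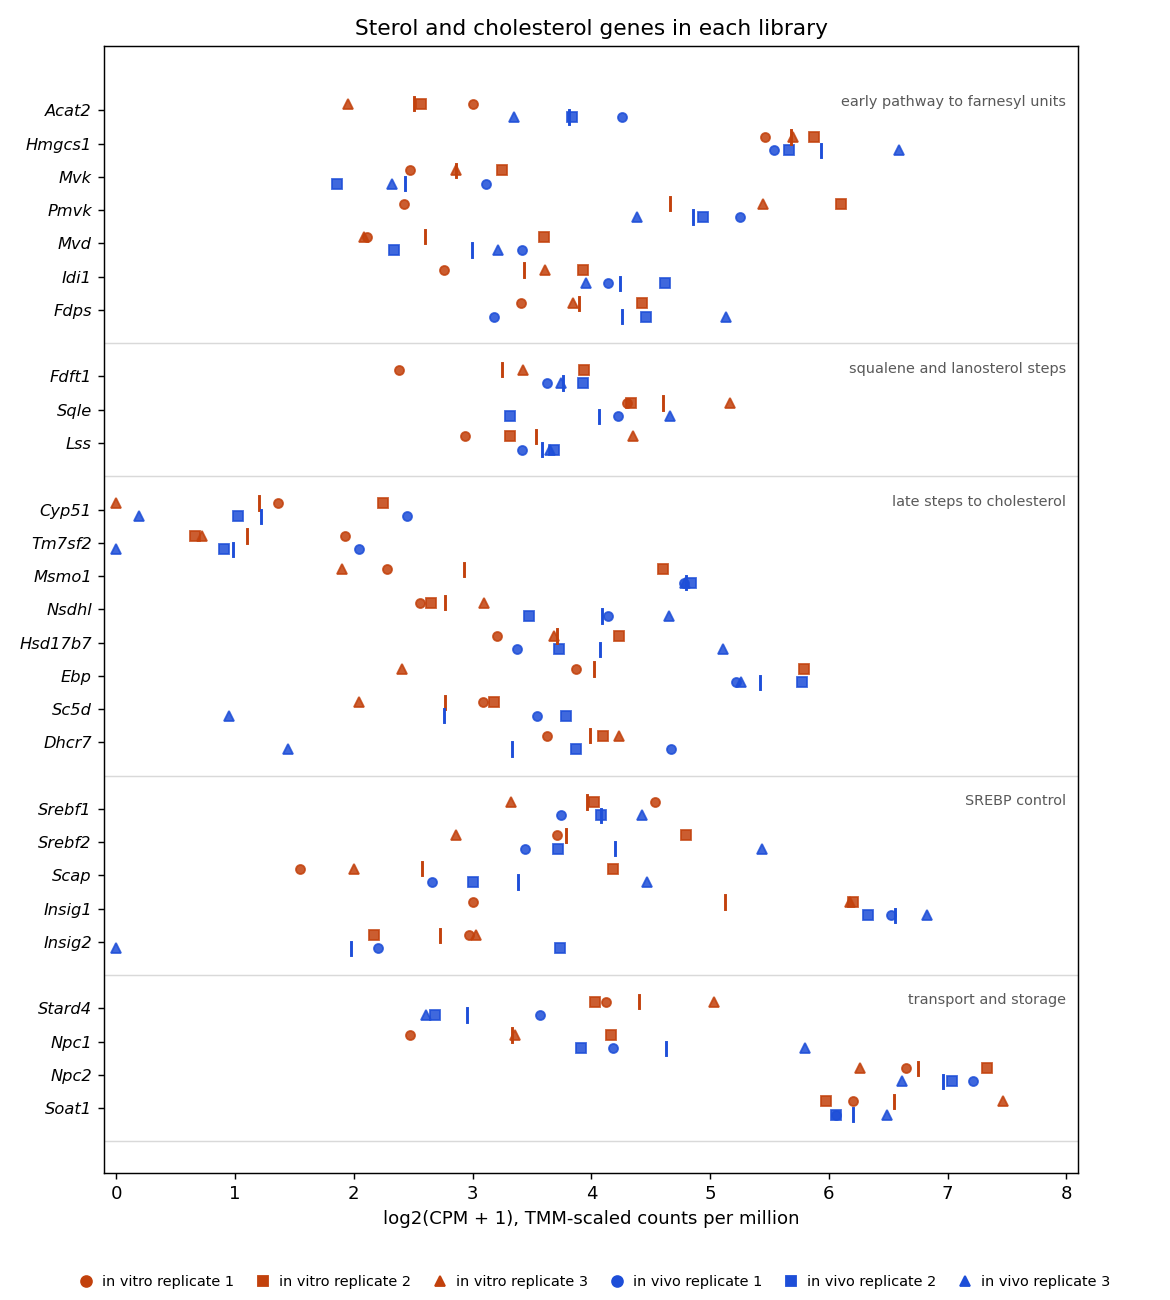
Level of each of the 27 genes in each library, as log2(CPM + 1) on the x axis, with genes grouped by role on the y axis. Within a gene the in vitro libraries (orange) stand above the in vivo libraries (blue), symbols mark the replicate and short vertical lines the group means of the log2 values; Msmo1 shows 3 in vivo libraries close to 27 CPM and 2 in vitro libraries below 4 CPM.

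**Figure D3:**
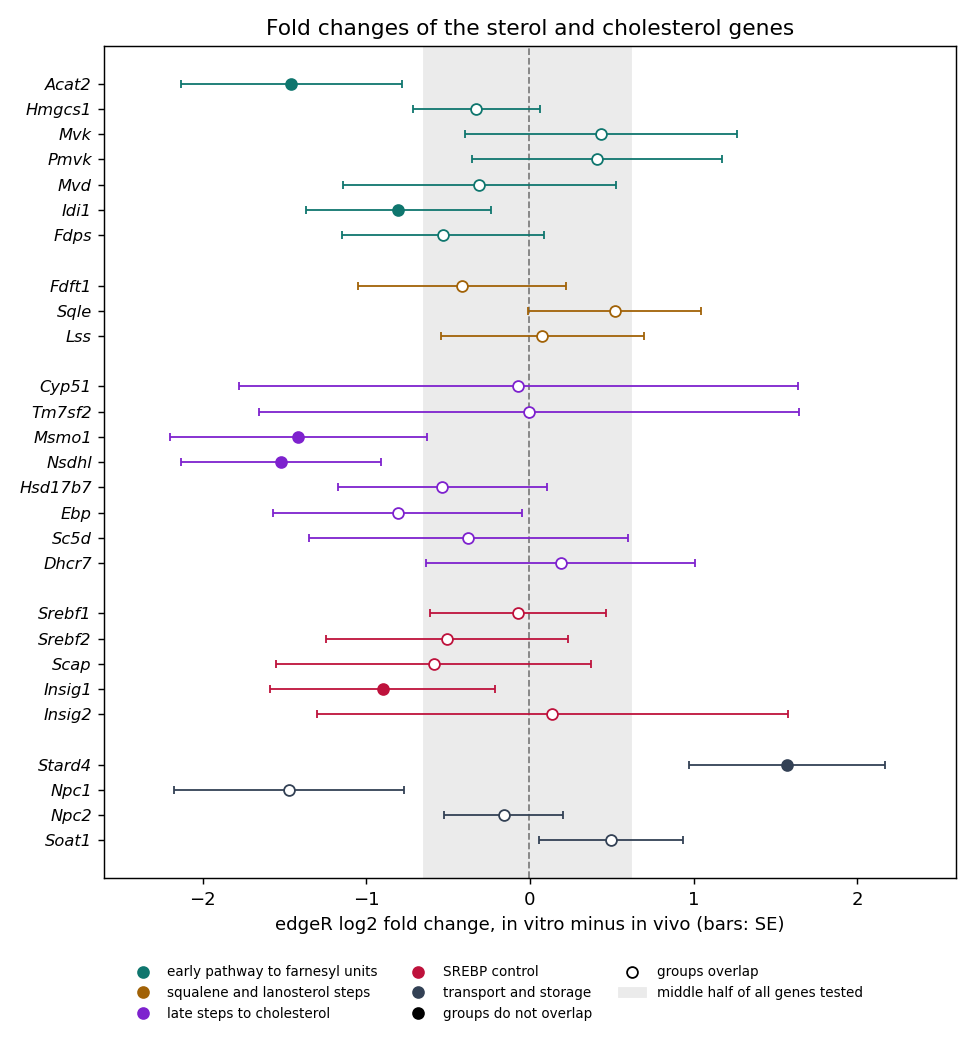
Fitted log2 fold change (in vitro over in vivo) of each gene, with standard errors as bars. Filled points mark the 6 genes whose groups did not overlap, the grey band is the interquartile range of all 14301 genes tested and the dashed line their median of -0.01; most points lie left of the line, and none passed the test.

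The early steps, from acetyl-CoA to farnesyl diphosphate, had 5 negative and 2 positive log2 fold changes among 7 genes, with a median of -0.33. Acat2, the cytosolic thiolase that joins 2 acetyl-CoA units (chromosome 17, 12943042 to 12960725, minus strand, protein-coding), was at 7.00, 4.90 and 2.86 CPM in in vitro replicates 1 to 3 and at 18.1, 13.2 and 9.16 CPM in in vivo replicates 1 to 3. Each in vitro value lay below each in vivo value. Its means were 4.92 ± 2.07 CPM in vitro and 13.5 ± 4.48 CPM in vivo (SD, n = 3 each), and its log2 fold change was -1.46 ± 0.67 (SE, adjusted p = 0.504, edgeR). Of its 2076 exonic bases, 634 (30.5%) overlap the antisense gene Gm20591, which held at most 0.130 CPM on average in a group, and the similar gene Acat3 was at 1.73 CPM in vitro and 2.68 CPM in vivo.

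Hmgcs1, which makes HMG-CoA (chromosome 13, 119690351 to 119708260, plus strand, protein-coding), was at 43.0, 57.6 and 50.9 CPM in vitro and 45.5, 49.6 and 95.2 CPM in vivo. The groups overlapped, with in vivo replicate 3 above all others, and the log2 fold change was -0.33 ± 0.39 (SE, adjusted p = 0.817, edgeR). Idi1, the isomerase of the 5-carbon isoprene units (chromosome 13, 8885606 to 8892396, plus strand, protein-coding), was at 5.77, 14.3 and 11.2 CPM in vitro and 16.6, 23.6 and 14.5 CPM in vivo. The gap between the groups was narrow, since in vitro replicate 2 and in vivo replicate 3 almost met. Its log2 fold change was -0.80 ± 0.56 (SE, adjusted p = 0.666, edgeR). The mevalonate kinase Mvk was at 4.55 to 8.49 CPM in vitro and 2.63 to 7.65 CPM in vivo, the phosphomevalonate kinase Pmvk at 4.37 to 67.8 and 19.8 to 37.2 CPM, the decarboxylase Mvd at 3.25 to 11.1 and 4.07 to 9.68 CPM, and the farnesyl diphosphate synthase Fdps at 9.62 to 20.6 and 8.04 to 34.1 CPM. All 4 overlapped between the groups. Mvd shares 34.4% of its exonic bases with Gm51557, a gene at no more than 0.291 CPM on average in a group. Among these 4, Pmvk varied most between the in vitro libraries, with 25, 927 and 327 counts in the 3 in vitro libraries.

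The squalene and lanosterol steps overlapped between the groups throughout. Sqle, the squalene epoxidase and a slow step of the pathway (chromosome 15, 59315092 to 59331193, plus strand, protein-coding), was at 18.7, 19.2 and 35.0 CPM in vitro and 17.7, 8.94 and 24.3 CPM in vivo. Its means of 24.3 ± 9.28 CPM in vitro and 17.0 ± 7.69 CPM in vivo (SD, n = 3 each) differed by less than 1 SD of the in vitro group, with a log2 fold change of 0.52 ± 0.53 (SE, adjusted p = 0.790, edgeR). The squalene synthase Fdft1 was at 4.20 to 14.3 CPM in vitro and 11.3 to 14.2 CPM in vivo, and the lanosterol synthase Lss at 6.65 to 19.4 CPM in vitro and 9.68 to 11.9 CPM in vivo. For both the in vitro range enclosed the in vivo range. Fdft1 shares 774 exonic bases (7.49% of its length) with Ctsb on the other strand, a gene at 83.6 CPM in vitro and 140 CPM in vivo.

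The late steps, which turn lanosterol into cholesterol, had 7 negative and 1 positive log2 fold changes among 8 genes, with a median of -0.46. Msmo1, the oxidase that starts removal of methyl groups from the sterol ring (chromosome 8, 64718123 to 64733578, minus strand, protein-coding), was at 3.85, 23.3 and 2.73 CPM in vitro and 26.4, 27.5 and 26.6 CPM in vivo. The in vivo libraries were nearly equal, whereas in vitro replicates 1 and 3 held 22 and 21 counts and in vitro replicate 2 held 318 counts, close to the 338 to 371 counts in vivo. The log2 fold change was -1.42 ± 0.79 (SE, adjusted p = 0.585, edgeR). Nsdhl, the dehydrogenase that follows Msmo1 in this removal (chromosome X, 72918521 to 72958528, plus strand, protein-coding), was at 4.90, 5.27 and 7.55 CPM in vitro and 16.6, 10.1 and 24.1 CPM in vivo. The groups did not overlap, with means of 5.90 ± 1.44 CPM in vitro and 17.0 ± 7.00 CPM in vivo (SD, n = 3 each), a log2 fold change of -1.52 ± 0.61 (SE) and an adjusted p of 0.455 (edgeR). Hsd17b7, the ketosteroid reductase that completes the cycle, was at 8.22 to 17.9 CPM in vitro and 9.37 to 33.5 CPM in vivo. Ebp, the sterol isomerase, was at 13.6, 54.3 and 4.30 CPM in vitro and 36.2, 53.7 and 37.3 CPM in vivo. As for Msmo1, in vitro replicates 1 and 3 stood far below all in vivo libraries. In vitro replicate 2 was just above the in vivo range for Ebp, so its groups overlapped, and below that range for Msmo1. The desaturase Sc5d was at 3.12 to 8.05 CPM in vitro and 0.931 to 12.8 CPM in vivo, and Dhcr7, which makes cholesterol in the final reduction, at 11.4 to 17.8 and 1.72 to 24.5 CPM, with in vivo replicate 3 the lowest library for both. Cyp51, the demethylase that acts first on lanosterol, and the sterol reductase Tm7sf2 were low throughout, at 0 to 3.73 CPM in vitro and 0.143 to 4.45 CPM in vivo for Cyp51 and at 0.585 to 2.80 and 0 to 3.12 CPM for Tm7sf2. They had 0 to 57 counts per library, and their log2 fold changes of -0.07 ± 1.71 and -0.01 ± 1.65 (SE) had the widest errors of the 27 genes.

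Nsdhl and Ebp are the 2 X-linked genes among the 27. In in vitro replicate 2, the library without Y-linked RNA, Ebp was the highest of all 6 libraries (54.3 CPM) and Nsdhl the second lowest (5.27 CPM), so the 2 genes did not share a pattern there. Without this library the median log2 fold change of the 27 genes was -0.87, against -0.07 for all genes tested. DESeq2 then called 2 of the 27 genes lower in vitro, Msmo1 (log2 fold change -3.01 ± 0.58 SE, adjusted p = 5.42e-05) and Ebp (-2.22 ± 0.67, adjusted p = 0.0248), when it called 5.36% of all genes. In vitro replicate 2 was the highest in vitro library for both genes. With any other single library left out, DESeq2 called none of the 27 genes, with smallest adjusted p-values of 0.0940 to 0.222. Without in vitro replicate 2, edgeR called none of the 27 genes (smallest adjusted p 0.259, for Msmo1). In that edgeR fit 4 of the 27 genes had an unadjusted p below 0.05 (Ebp, Stard4, Npc1 and Msmo1), against 12.7% of all genes. Whether embryo sex or another property of in vitro replicate 2 goes with its higher levels was not tested, because no other library lacked Y-linked RNA.

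Among the 5 genes of SREBP control 4 had negative log2 fold changes and 1 a positive one, with a median of -0.51. Insig1, an SREBP target that retains the SCAP and SREBP complex in the endoplasmic reticulum (chromosome 5, 28071412 to 28078662, plus strand, protein-coding), was at 7.00, 72.7 and 71.5 CPM in vitro and 91.1, 79.5 and 112 CPM in vivo. In vitro replicate 1, with 40 counts, stood far below the other 5 libraries, which had 549 to 1570 counts, and the other 2 in vitro libraries lay just under the lowest in vivo library. The means were 50.4 ± 37.6 CPM in vitro and 94.3 ± 16.7 CPM in vivo (SD, n = 3 each), with a log2 fold change of -0.90 ± 0.69 (SE, adjusted p = 0.698, edgeR) that became -0.38 without in vitro replicate 1. Insig2, its paralog, which in mouse liver is under other control than Insig1 (chromosome 1, 121304353 to 121332662, minus strand, protein-coding), was at 6.82, 3.51 and 7.16 CPM in vitro and 3.59, 12.3 and 0 CPM in vivo. The groups overlapped, with the lowest and the highest library both in vivo (log2 fold change 0.14 ± 1.44 SE, adjusted p = 0.986, edgeR). Per kilobase of exon, Insig1 exceeded Insig2 by 2.72, 54.9 and 26.4 times in in vitro replicates 1 to 3 and by 67.2 and 17.1 times in in vivo replicates 1 and 2, and Insig2 had 0 counts in in vivo replicate 3.

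Srebf2, which encodes the main activator of sterol enzymes (chromosome 15, 82147269 to 82205379, plus strand, protein-coding), was at 12.1, 26.8 and 6.25 CPM in vitro and 9.84, 12.1 and 42.4 CPM in vivo. The groups overlapped, and the highest library of each group was more than 2 times above the others of that group (log2 fold change -0.51 ± 0.74 SE, adjusted p = 0.862, edgeR). Srebf1, which encodes the form that mainly drives fatty acid synthesis (chromosome 11, 60199084 to 60224186, minus strand, protein-coding), was at 22.2, 15.3 and 8.98 CPM in vitro and 12.4, 16.0 and 20.5 CPM in vivo. Its group means were nearly equal, 15.5 ± 6.62 CPM in vitro and 16.3 ± 4.04 CPM in vivo (SD, n = 3 each), with a log2 fold change of -0.07 ± 0.54 (SE, adjusted p = 0.977, edgeR). Per kilobase of exon, the ratio of Srebf2 to Srebf1 was 0.607, 1.96 and 0.777 in vitro and 0.885, 0.849 and 2.31 in vivo, so that Srebf2 was the more abundant one in 1 library of each group. Scap was at 1.92, 17.2 and 2.99 CPM in vitro and 5.31, 7.02 and 21.2 CPM in vivo. The libraries with the highest Scap, in vitro replicate 2 and in vivo replicate 3, were also those with the highest Srebf2 in their group.

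The 4 genes of transport and storage had 2 positive and 2 negative log2 fold changes. Stard4, a soluble sterol carrier and SREBP target (chromosome 18, 33199138 to 33213862, minus strand, protein-coding), was at 16.4, 15.4 and 31.8 CPM in vitro and 10.9, 5.43 and 5.08 CPM in vivo. Each in vitro value lay above each in vivo value, and Stard4 was the only one of the 27 genes with that arrangement. Its means were 21.2 ± 9.17 CPM in vitro and 7.12 ± 3.24 CPM in vivo (SD, n = 3 each), and the log2 fold change was 1.57 ± 0.60 (SE, adjusted p = 0.433, edgeR). By unadjusted p it ranked 906th of the 14301 genes tested. Npc1, the lysosomal membrane protein that exports cholesterol (chromosome 18, 12189694 to 12236506, minus strand, protein-coding), was at 4.55, 16.9 and 9.24 CPM in vitro and 17.1, 14.0 and 54.6 CPM in vivo. In vitro replicate 2 lay above in vivo replicate 2, so the groups overlapped, and in vivo replicate 3 was far above the rest. The log2 fold change was -1.47 ± 0.70 (SE, adjusted p = 0.523, edgeR), and it became -0.59 without in vivo replicate 3. Npc1 shares 288 exonic bases (5.40% of its length) with Rmc1 on the other strand, a gene at 10.5 CPM in vitro and 23.1 CPM in vivo. Npc2, the soluble protein that hands cholesterol to Npc1, was at 99.3, 160 and 75.6 CPM in vitro and 148, 131 and 97.2 CPM in vivo, with overlapping groups (log2 fold change -0.16 ± 0.37 SE). Soat1, which esterifies cholesterol for storage in droplets (chromosome 1, 156428108 to 156474328, minus strand, protein-coding), was at 72.8, 61.9 and 176 CPM in vitro and 65.6, 65.5 and 88.9 CPM in vivo. Only in vitro replicate 3 lay above the in vivo range, and the log2 fold change was 0.50 ± 0.44 (SE, adjusted p = 0.747, edgeR).

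Compared per kilobase of exon, averaged over the 6 libraries, the order of levels was led by Npc2 (36.3 CPM per kb), Insig1 (27.3), Ebp (19.1), Soat1 (18.4), Pmvk (17.2) and Hmgcs1 (15.5). The lowest were Cyp51 (0.419 CPM per kb), Insig2 (0.793), Tm7sf2 (0.906) and Fdft1 (1.07). The order differed between the groups below Npc2, which led in both. In vitro it continued with Soat1 (21.5 CPM per kb), Pmvk (19.6), Insig1 (19.0) and Ebp (13.8), and in vivo with Insig1 (35.6), Ebp (24.3), Hmgcs1 (17.3) and Soat1 (15.3). Neighbours such as Ebp and Soat1, or Pmvk and Hmgcs1, did not differ beyond their spread between libraries. The lengths used are the deposited ones, which for Fdft1 is 10331 bases, and isoform use was not analysed here.

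The 18 enzymes together reached 161, 356 and 243 CPM in in vitro replicates 1 to 3 and 313, 311 and 358 CPM in in vivo replicates 1 to 3. The in vivo sums were alike, in vitro replicate 2 was within the in vivo range, and in vitro replicates 1 and 3 were below it. Single enzymes differed within the in vivo group in opposite ways. In in vivo replicates 1 to 3 Hmgcs1 was at 45.5, 49.6 and 95.2 CPM and Dhcr7 at 24.5, 13.6 and 1.72 CPM. A few genes carried much of a sum, as Hmgcs1, Pmvk and Ebp did in in vitro replicate 2 (57.6, 67.8 and 54.3 CPM). The means of these sums were 253 ± 98.1 CPM in vitro and 327 ± 26.4 CPM in vivo (SD, n = 3 each), a ratio of 0.774. By library, in vitro replicate 1 was the lowest of all 6 for 10 of the 27 genes (37.0%, against 21.8% of all genes tested) and in vitro replicate 3 for 8 (29.6%, against 20.8%). In vivo replicate 3 was the highest for 8 genes (29.6%, against 20.8%) and in vitro replicate 2 for 6 (22.2%, against 10.7%). In vitro replicate 1 was the highest for 1 gene, Srebf1 (3.70%, against 20.3% of all genes). In vitro replicate 1 also had the fewest counts, 6918288. Genes with any count did not follow library totals. They numbered 16996, 20291 and 18325 in in vitro replicates 1 to 3 and 20867, 20316 and 16977 in in vivo replicates 1 to 3. In vivo replicate 3 thus had the fewest such genes with the most counts, 17643429. The part of library totals and of genes detected in these high and low values was not tested.

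Related genes of the pathway were 67 genes in 7 lists, of which 56 were tested. They held 0 calls by edgeR and 1 by DESeq2, which called 2.81% of all genes. Of the 56 genes, 32 had positive and 24 negative log2 fold changes. The median over these 56 genes was 0.23, against -0.33 for the 27 genes above and -0.01 for all genes tested, and 2 of them (3.57%, background 10.2%) had an unadjusted edgeR p below 0.05. The groups of libraries did not overlap for 5 of the 56 genes (8.93%), a smaller share than the 19.3% over all genes tested. Of 7 other sterol enzymes 4 were positive and 3 negative. The cytochrome b5 reductase Cyb5r3 was at 36.2 ± 5.32 CPM in vitro and 61.5 ± 36.8 CPM in vivo (SD, n = 3 each), with overlapping groups. Of 12 genes of the isoprenoid branch 7 were positive and 5 negative. Ggps1, which makes geranylgeranyl diphosphate, was at 33.2 ± 8.65 CPM in vitro and 22.1 ± 2.75 CPM in vivo, and Fnta, a subunit of protein farnesyltransferase, at 44.4 ± 2.01 and 69.2 ± 17.9 CPM (SD, n = 3 each), and for both the groups did not overlap.

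The list of uptake and intracellular transport had 10 tested genes, 6 positive and 4 negative, and held both related genes with an unadjusted edgeR p below 0.05. Scarb1, the receptor for high-density lipoprotein, was at 2.80, 3.95 and 1.82 CPM in vitro and 8.28, 8.22 and 31.1 CPM in vivo. The groups did not overlap, and in vivo replicate 3 was well above the others. Its log2 fold change was -2.46 ± 0.80 (SE, adjusted p = 0.398, edgeR). DESeq2 called it lower in vitro with an adjusted p of 0.0490. That call was lost without any one of 5 libraries, in vitro replicate 1 (0.146), in vitro replicate 3 (0.149), in vivo replicate 1 (0.0701), in vivo replicate 2 (0.107) or in vivo replicate 3 (0.265), and stayed at 0.0483 without in vitro replicate 2. The DESeq2 log2 fold change was -2.46, -2.22, -2.78 and -2.78 in the first 4 of these 5 fits, and it was -1.52 without in vivo replicate 3. Osbp, an exchanger of sterols between the endoplasmic reticulum and the Golgi, was at 38.1, 25.6 and 28.6 CPM in vitro and 14.9, 13.2 and 16.0 CPM in vivo, again without overlap (log2 fold change 1.06 ± 0.42 SE, adjusted p = 0.450, edgeR). The 10 genes of SREBP processing and sterol-regulated turnover had 7 positive and 3 negative values. Among them the ubiquitin ligase Rnf145 was at 53.7, 5.41 and 7.03 CPM in vitro and 6.48, 4.15 and 6.51 CPM in vivo, with a log2 fold change of 1.94 ± 0.91 (SE, adjusted p = 0.506, edgeR) that became 0.13 without in vitro replicate 1, and Rnf139 was at 2.03 ± 1.78 and 8.57 ± 7.04 CPM (SD, n = 3 each).

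Of the 6 tested genes of the LXR pathway, which acts on surplus sterol, 4 were positive and 2 negative. The nuclear receptor Rxra, partner of LXR, was at 8.74, 20.6 and 6.12 CPM in vitro and 4.06, 5.83 and 0 CPM in vivo, and Mylip, a ligase that degrades lipoprotein receptors, at 9.42 ± 6.42 CPM in vitro and 3.41 ± 0.950 CPM in vivo (SD, n = 3 each). Of 8 genes of esters and oxysterols 6 were too low to be tested, and the remaining 2 were Nceh1 at 0.801 ± 1.28 and 3.28 ± 3.92 CPM and Hsd3b7 at 3.58 ± 3.41 and 4.07 ± 1.54 CPM (in vitro and in vivo, SD, n = 3 each). The 9 tested fatty acid genes under SREBP1 had 4 positive and 5 negative values with a median of -0.13, and the groups overlapped for every one of them. Elovl6, a fatty acid elongase, was at 165 ± 61.3 CPM in vitro and 130 ± 11.0 CPM in vivo, and the desaturase Scd1 at 67.8 ± 16.7 and 89.7 ± 22.6 CPM (SD, n = 3 each).

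**Figure D4:**
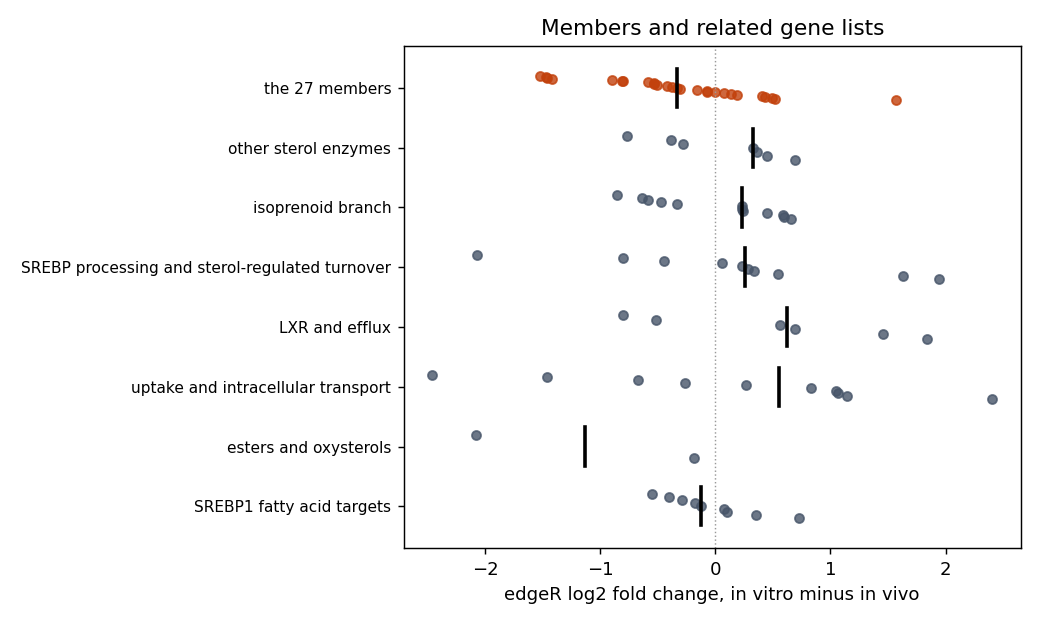
Fitted log2 fold changes (in vitro over in vivo) of the 27 sterol and cholesterol genes (orange) and of the tested genes of 7 related lists (grey), with black lines at the medians. The median is -0.33 for the 27 genes, and it ranges from -1.13 over 2 genes of esters and oxysterols to 0.63 over 6 genes of LXR and efflux; no gene shown passed edgeR's test.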

How the data were processed

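RNA of frozen embryos was extracted with a microextraction kit, and libraries were prepared with a transposase kit without strand marking, per the labels' protocols. The authors deposited raw counts per gene. FastQC 0.11.2, DESeq2 and GRCm39 are named in the processing notes of the submitters, and the aligner, counter and annotation were not given in the sources used here. However, all 47551 genes compared have the coordinates of RefSeq on GRCm38.p6, so that build is given. Without strand, reads of overlapping antisense genes cannot be told apart, and PCR copies are not independent molecules, so floors cover counting error only.

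Groups came from the titles. Counts were analysed with edgeR 4.0.16 in R 4.3.3 (filter on low counts by group, TMM, robust quasi-likelihood F-test, legacy form, two-sided, Benjamini-Hochberg over 14301 genes, threshold 0.05; common biological coefficient of variation 0.727). CPM used TMM-scaled totals. For edgeR the SE was derived from the test, as the absolute log2 fold change divided by the square root of F. DESeq2 reports its own SE. DESeq2 1.42.0, limma 3.58.1 (voom with quality weights), other scalings and filters, each library left out and a replicate block were alternatives, and leaving out ribosomal RNA genes was added after the data were seen. The main edgeR fit and the DESeq2 and limma-voom fits were tested on simulated counts, and the other alternatives were not. The condition for passing was recovery of large changes and of fitted sizes at a dispersion far below that of these libraries. It therefore does not show how often real changes would be missed here. No 2 libraries were copies (chi-square per degree of freedom at least 31.5). Members, gene lists and motifs were chosen with earlier results of these data known. Full values are given for the 8 members of smallest edgeR p and for Hmgcs1, Sqle, Srebf1, Srebf2, Insig1, Insig2 and Npc1. From each related list the 2 genes of smallest p are named, except for 1 that is not reported here.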

Additional observations from a re-analysis of the deposited data

How the results depend on the processing

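None of the 27 genes was called by edgeR under any alternative fit (25 of them were tested with the stricter filter) or at an adjusted p below 0.1, nor by DESeq2 or limma-voom with all 6 libraries. DESeq2 called Msmo1 and Ebp without in vitro replicate 2, and none of the 27 genes with any other single library left out. The number called over all genes was 0 by edgeR and stayed 0 under other scalings, the stricter filter, each library left out and without ribosomal RNA genes, but was 391 without a filter, 3 with the newer quasi-likelihood form, 459 by DESeq2 and 102 by limma-voom. The cause was not tested. The median log2 fold change of the 27 genes was negative in every fit, but in some fits it was near that of all genes. It was -0.14 by limma-voom, against -0.09 over all genes, and -0.52 with library totals alone, against -0.31. With 1 library left out it ranged from -0.87 without in vitro replicate 2 (all genes -0.07) to -0.14 without in vitro replicate 3 (all genes -0.06). No pairing by replicate number was seen, with correlations of deviations of -0.10, 0.10 and -0.04 for numbers 1 to 3. Unequal numbers gave -0.09 to 0.12. With 3 libraries per group such values cannot exclude a shared mother or batch. With the replicate block 0 genes were called, and the median of the 27 genes was -0.33, against -0.03 over all genes.

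Of the 27 genes, 11 kept 1 direction in every fit (Acat2, Mvk, Idi1, Fdft1, Sqle, Msmo1, Nsdhl, Ebp, Insig1, Stard4 and Npc1). The direction reversed with library totals alone for Lss (-0.25), Dhcr7 (-0.32) and Insig2 (-0.38), and with the replicate block for Pmvk (-0.0210), Lss (-0.0732), Tm7sf2 (0.82) and Sc5d (0.13). By limma-voom it reversed for Hmgcs1 (0.0617), Pmvk (-0.13), Mvd (0.0660), Fdps (0.14), Lss (-0.14), Hsd17b7 (0.25), Dhcr7 (-0.10), Srebf1 (0.0535), Srebf2 (0.45), Scap (0.12) and Insig2 (-0.19). Cyp51 was at 0.14 with the newer form, and Tm7sf2 at 0.0257 with DESeq2 size factors, 0.0270 by DESeq2 and 0.0129 without ribosomal RNA genes. With 1 library left out, log2 fold changes crossed 0 for Hmgcs1 (-0.53 to 0.0933), Pmvk (-0.31 to 0.94), Fdps (-0.94 to 0.0106), Lss (-0.50 to 0.36), Cyp51 (-1.28 to 1.55), Tm7sf2 (-1.09 to 1.55), Hsd17b7 (-0.88 to 0.24), Sc5d (-0.90 to 0.0976), Dhcr7 (-0.33 to 0.95), Srebf1 (-0.41 to 0.20), Srebf2 (-1.24 to 0.46), Scap (-2.19 to 0.28), Insig2 (-0.44 to 1.68), Npc2 (-0.53 to 0.0595), Soat1 (-0.12 to 0.75) and Hsd3b7 (-1.30 to 0.26).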
